A study of Mus musculus with 12 samples.

Results

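Livers of hepatocyte-specific Atg7-knockout mice were examined for 10 genes that mark TREM2-positive lipid-associated macrophages: Trem2, Clec7a, Itgax, Gpnmb, Cd9, Ms4a7, Lpl, Fabp5, Lgals3 and Mmp9. The members were taken by gene symbol, and all 10 were found among the 24411 genes of the count table. They were picked with earlier results of these same mice in view, so their levels and fold changes are given as a description without a test. All 10 were among the 13922 genes that passed the filter on low counts, which keeps a gene that is high enough in 1 genotype alone.

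Lipid-associated macrophages gather around dying, lipid-laden cells in fatty liver, adipose tissue and atherosclerotic plaques. Their receptor TREM2 binds lipids, lipoproteins and debris and signals through the adaptor DAP12 (Tyrobp) and the kinase SYK, and the cells take up, store and export lipid. Resident liver macrophages, the Kupffer cells, express little Trem2 in healthy liver, and macrophages that derive from blood monocytes are a known source of the programme. Cd9, Lgals3, Fabp5 and Lpl are also expressed by cells other than macrophages, and which cells held these transcripts was not tested.

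Poly(A) RNA of whole liver was sequenced from mice at 3 months of age, on a C57BL/6 background, with 3 mice per genotype. All of them carried floxed alleles of Atg7, an enzyme needed to build autophagosomes. The control (cont.) mice were Atg7flox/flox without Cre, Atg7-KO mice carried Alb-Cre in addition, whose albumin promoter drives Cre in hepatocytes and leaves Atg7 intact in macrophages, and Atg7-KO;p62T352A mice carried Alb-Cre and were homozygous for the T352A exchange in p62 (gene Sqstm1). The exchange was made in the germ line, so that p62 is altered in macrophages and in hepatocytes alike. A further group of 3 p62T352A mice without Cre is labelled but has no column in the count table, and was not analysed. The effect of the p62 exchange alone thus cannot be told apart from its effect in Atg7-KO liver.

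Libraries held 9671080 to 23285132 counts in cont., 16157269 to 18480553 in Atg7-KO mice and 16133620 to 17357172 in Atg7-KO;p62T352A mice. Levels below are normalized CPM, counts scaled to the size and composition of each library by the TMM method. A gene is called when its fold change is over 1.5 and its FDR (Benjamini-Hochberg, over all tested genes) is under 0.05. Atg7 itself was 46.4, 44.2 and 55.4 CPM in cont. mice 1, 2 and 3, 10.1, 9.57 and 12.0 in Atg7-KO and 29.7, 27.4 and 29.5 in Atg7-KO;p62T352A mice. It was thus lowest in Atg7-KO, and its level in Atg7-KO;p62T352A lay between both other genotypes without overlap. Atg7-KO;p62T352A and Atg7-KO mice therefore differed in Atg7 RNA as well as in p62, and the effects of these cannot be told apart here. Cont. mouse 1 stood apart: its Spearman correlation across genes was 0.930 and 0.907 with the other cont. mice, which correlated with each other at 0.979, and its normalization factor was 0.750. Xist, the X-inactivation transcript, was 0.401 to 1.35 CPM in the mice numbered 1 and 373 to 2015 CPM in the other 6, in all genotypes. Results are therefore also given without cont. mouse 1 or without the mice numbered 1.

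The summed level of the 10 genes was 66.1 to 103 CPM in cont., 752 to 794 CPM in Atg7-KO mice and 182 to 221 CPM in Atg7-KO;p62T352A mice. All 10 genes were higher in every Atg7-KO mouse than in every cont. mouse, and 8 of them were called higher. Of all tested genes, 29.2% were higher and 26.3% lower in every Atg7-KO mouse, 21.6% were called higher and 43.7% were called in either direction. Since these values chose the members, nothing is read from that count. The median log2 fold change of the 10 genes was 3.49 in Atg7-KO against cont., beside -0.03 over all tested genes. In Atg7-KO;p62T352A against Atg7-KO it was -2.30, with 9 genes called lower and the same number lower without overlap, beside 26.2% of tested genes called lower, 51% called in either direction and 36.8% lower without overlap. In Atg7-KO;p62T352A against cont. it was 1.30, with 4 genes called higher and the same number higher without overlap, beside 6.25% called higher and 15.5% higher without overlap. Without cont. mouse 1 the 3 medians were 3.71, -2.29 and 1.54. The 3 comparisons share mice and are therefore not independent of each other. In whole liver, more cells of a type and more RNA per cell cannot be told apart.

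**Figure D1:**
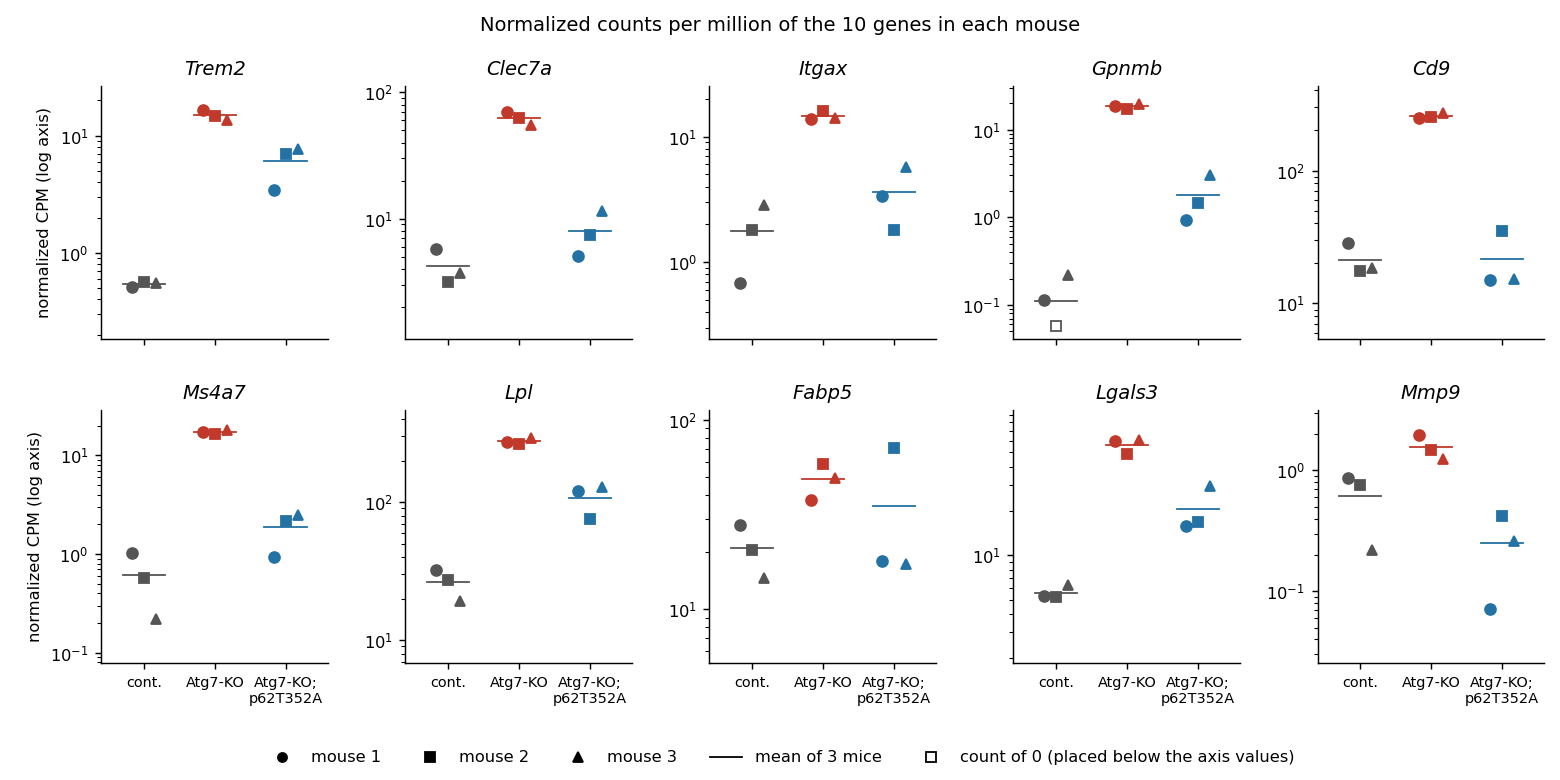
Normalized CPM (vertical, log axis) of each of the 10 genes in the 3 cont., 3 Atg7-KO and 3 Atg7-KO;p62T352A mice, with 1 point per mouse and a line at the mean of 3 mice. All 10 genes are higher in every Atg7-KO mouse than in every cont. mouse. Trem2, Gpnmb, Lpl and Lgals3 also lie above cont. in every Atg7-KO;p62T352A mouse, and the open square marks a Gpnmb count of 0.

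The genes lie on separate chromosomes or far apart on the same one. Trem2 is at chr17:48346401-48354147 on the plus strand of GRCm38, Clec7a at chr6:129461591-129472779 (minus), Itgax at chr7:128129547-128150657 (plus), Gpnmb at chr6:49036546-49070929 (plus) and Cd9 at chr6:125460266-125494791 (minus). Ms4a7 is at chr19:11321039-11336146 (minus), Lpl at chr8:68880491-68907448 (plus), Fabp5 at chr3:10012548-10016607 (plus), Lgals3 at chr14:47367751-47386160 (plus) and Mmp9 at chr2:164940780-164955850 (plus). RSEM counts reads over whole transcripts, untranslated regions included. GENCODE lists Clec7a as a polymorphic pseudogene, and 9 of the 10 as protein coding. Of the 75-base stretches of Itgax transcripts, 5.01% also occur in transcripts of Itgad, and 3.03% of those of Fabp5 occur in Gm6166 or Gm14328, so a small share of their reads could have been split between genes. Exons of Cd9 overlap those of Gm26728, and without a stated strand setting their reads cannot be told apart.

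RefSeq promoter sequences (GRCm38.p6) were at hand for 7 of the 10 genes, and the 250 bases before each start site were searched on both strands for 5 motifs. TGANTCA, the AP-1 motif with its middle base left free, lay in the promoters of Trem2, Itgax and Ms4a7. It lay in 7.82% of the promoters of 27025 genes. The AP-1 consensus has C or G in the middle, and of the 3 matches only that of Itgax (TGAGTCA) has it. Those of Trem2 (TGAATCA) and Ms4a7 (TGATTCA) do not. The M-box TCANGTG, which is bound by MITF and TFE3, lay in that of Lgals3 alone among the 7, at 224 bases before the start, and in 13.8% of all promoters. The PU.1 motif GAGGAAGT (2.79% of all), the antioxidant response element core TGACNNNGC (11.5%) and the TATA box TATAAA (14.3%) had no match in these windows of the 7 genes. The promoters with a TGANTCA match are shown as examples of a match. That of Gpnmb is shown because it had the largest fold change and no match to any of the 5 motifs. All 7 genes were higher in Atg7-KO, so their levels do not set the 3 genes with a match apart. Capitals mark the TGANTCA match. It lies 9 bases before the start of Trem2 (chr17:48346151-48346400), 56 before that of Itgax (chr7:128129300-128129549) and 81 before the second start of Ms4a7 (chr19:11334696-11334945, minus strand). The Gpnmb promoter is chr6:49036268-49036517. All are read 5′ to 3′ on the strand of the gene, and a match of letters is a description and not a binding site.
Trem2: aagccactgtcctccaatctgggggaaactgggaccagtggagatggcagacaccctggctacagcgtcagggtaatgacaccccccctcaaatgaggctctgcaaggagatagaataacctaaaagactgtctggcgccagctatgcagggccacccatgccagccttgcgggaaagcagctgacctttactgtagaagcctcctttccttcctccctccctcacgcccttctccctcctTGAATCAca
Itgax: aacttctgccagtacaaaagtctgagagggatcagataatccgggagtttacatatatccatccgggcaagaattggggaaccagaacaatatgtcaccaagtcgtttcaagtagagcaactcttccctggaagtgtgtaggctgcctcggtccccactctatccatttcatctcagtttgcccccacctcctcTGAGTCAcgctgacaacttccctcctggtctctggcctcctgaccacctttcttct
Ms4a7: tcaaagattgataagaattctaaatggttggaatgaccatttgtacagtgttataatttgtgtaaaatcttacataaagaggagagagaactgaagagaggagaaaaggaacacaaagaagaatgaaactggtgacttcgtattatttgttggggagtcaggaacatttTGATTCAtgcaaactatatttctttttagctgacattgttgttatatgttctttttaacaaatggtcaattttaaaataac
Gpnmb: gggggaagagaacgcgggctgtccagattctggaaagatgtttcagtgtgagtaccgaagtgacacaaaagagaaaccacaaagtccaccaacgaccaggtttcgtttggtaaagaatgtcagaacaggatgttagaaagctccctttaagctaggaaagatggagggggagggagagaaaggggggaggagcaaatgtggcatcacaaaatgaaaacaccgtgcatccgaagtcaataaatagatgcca

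Among the receptors, Trem2 was barely detected in control liver. Its level was 0.516, 0.567 and 0.550 CPM in cont. mice 1, 2 and 3, from 9, 6 and 5 counts. In Atg7-KO mice it was 16.6, 14.7 and 13.6 CPM, and in Atg7-KO;p62T352A mice 3.43, 7.00 and 7.70 CPM. The 3 genotypes did not overlap: Atg7-KO was highest and cont. lowest. The mean was 27.5-fold that of cont. in Atg7-KO, with a log2 fold change of 4.77 ± 0.36 (standard error of the fit, 3 mice per genotype), and 11.1-fold in Atg7-KO;p62T352A (3.47 ± 0.36). Between Atg7-KO;p62T352A and Atg7-KO the log2 fold change was -1.31 ± 0.28. Of the 10 genes, Trem2 had the largest log2 fold change in Atg7-KO;p62T352A relative to that in Atg7-KO, at 72.6% of it.

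Clec7a encodes Dectin-1, a pattern receptor for fungal glucans that also signals through SYK. Its levels were 5.73, 3.12 and 3.74 CPM in cont., 70.5, 62.7 and 55.0 in Atg7-KO and 5.07, 7.36 and 11.4 in Atg7-KO;p62T352A mice. Atg7-KO stood above both other genotypes, while Atg7-KO;p62T352A mouse 1 lay within the range of cont. On the log2 scale Clec7a differed from cont. by 3.88 ± 0.34 in Atg7-KO and by 0.90 ± 0.32 in Atg7-KO;p62T352A, and by -2.98 ± 0.32 between the Alb-Cre genotypes. Itgax encodes CD11c, an integrin of dendritic cells and of activated macrophages. It was 0.688, 1.80 and 2.86 CPM in cont., 13.8, 15.8 and 14.1 in Atg7-KO and 3.36, 1.82 and 5.74 in Atg7-KO;p62T352A mice. Again only Atg7-KO stood clear, and Atg7-KO;p62T352A overlapped cont. through its mouse 2. The cont. mean was 1.78 ± 1.08 CPM (SD, n = 3), and the low value was that of cont. mouse 1. The log2 fold change of Itgax was 3.10 ± 0.51 in Atg7-KO, -1.99 ± 0.46 in Atg7-KO;p62T352A against Atg7-KO and 1.10 ± 0.51 in Atg7-KO;p62T352A against cont.

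Gpnmb, a transmembrane glycoprotein of the phagosome and lysosome, was almost absent from control liver. It had 2, 0 and 2 counts in the 3 cont. mice, whereas Atg7-KO mice had 18.4, 17.4 and 19.8 CPM and Atg7-KO;p62T352A mice 0.928, 1.47 and 3.00 CPM. The genotypes did not overlap, and Atg7-KO;p62T352A lay closer to cont. than to Atg7-KO in CPM. Because cont. held only 4 counts in all, its fold is given from summed counts: the ratio of Atg7-KO to cont. was 172, with a 95% interval for counting error alone from 66.9 to 631. For Atg7-KO;p62T352A to cont. the ratio was 17.0, with an interval from 6.40 to 64.0. The log2 fold change between Atg7-KO;p62T352A and Atg7-KO, where both were well counted, was -3.35 ± 0.41.

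Cd9 encodes a tetraspanin of the cell surface and of extracellular vesicles. It was 28.3, 17.6 and 18.4 CPM in cont., 249, 253 and 271 in Atg7-KO and 15.1, 34.8 and 15.3 in Atg7-KO;p62T352A mice. Its mean was 12.0-fold that of cont. in Atg7-KO, and the Atg7-KO;p62T352A mice spread around the level of cont., with mouse 2 above and mice 1 and 3 below all cont. mice. Against cont., its log2 fold change was 3.59 ± 0.36 in Atg7-KO but 0.02 ± 0.33 in Atg7-KO;p62T352A, the latter being 0.529% of the former and below 0 under other scalings of the counts (-0.01 with upper-quartile scaling). Ms4a7 encodes a membrane protein of the MS4A family found in macrophages of monocyte origin. It was 1.03, 0.567 and 0.220 CPM in cont., 17.5, 16.5 and 18.1 in Atg7-KO and 0.928, 2.17 and 2.48 in Atg7-KO;p62T352A mice. Atg7-KO did not overlap the others, and Atg7-KO;p62T352A overlapped cont. through its mouse 1. The log2 fold change of Ms4a7 was 4.70 ± 0.46 in Atg7-KO, -3.21 ± 0.40 in Atg7-KO;p62T352A against Atg7-KO and 1.49 ± 0.47 in Atg7-KO;p62T352A against cont. Without the mice numbered 1, the last value was 2.50.

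Lpl encodes lipoprotein lipase, which frees fatty acids from circulating triglyceride and is silent in most adult hepatocytes. Its levels were 32.4, 27.2 and 19.1 CPM in cont., 273, 264 and 292 in Atg7-KO and 120, 75.4 and 128 in Atg7-KO;p62T352A mice. The genotypes did not overlap, in the same order as for Trem2. Against cont., Lpl differed by 3.39 ± 0.27 (log2) in Atg7-KO and by 2.04 ± 0.26 in Atg7-KO;p62T352A, and by -1.36 ± 0.25 between the Alb-Cre genotypes. Fabp5, a cytosolic fatty acid-binding protein, differed less and varied more. It was 27.8, 20.5 and 14.5 CPM in cont., 37.7, 58.3 and 49.4 in Atg7-KO and 17.9, 70.3 and 17.3 in Atg7-KO;p62T352A mice. Mouse 2 of Atg7-KO;p62T352A had the highest value of all 9 mice, and the other two lay within cont. The log2 fold change of Fabp5 was 1.20 ± 0.52 in Atg7-KO, -0.46 ± 0.51 in Atg7-KO;p62T352A against Atg7-KO and 0.74 ± 0.51 against cont. Without mouse 2 of Atg7-KO;p62T352A the last 2 values became -1.46 and -0.26.

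Of the secreted proteins, Lgals3 (galectin-3, a lectin that macrophages release) was 5.27, 5.20 and 6.26 CPM in cont., 59.8, 48.7 and 60.6 in Atg7-KO and 15.7, 16.8 and 29.6 in Atg7-KO;p62T352A mice. No mouse of a genotype reached into the range of another. Its difference from cont. was 3.34 ± 0.27 (log2) in Atg7-KO and 1.90 ± 0.26 in Atg7-KO;p62T352A, and -1.44 ± 0.25 between the Alb-Cre genotypes. Mmp9, a gelatinase made by macrophages and neutrophils, was the least abundant of the 10 in Atg7-KO. It was 0.860, 0.756 and 0.220 CPM in cont., 1.98, 1.48 and 1.24 in Atg7-KO and 0.071, 0.420 and 0.261 in Atg7-KO;p62T352A mice. Atg7-KO was above both other genotypes, and Atg7-KO;p62T352A overlapped cont. at the lower end. The log2 fold change of Mmp9 was 1.27 ± 0.51 in Atg7-KO, -2.60 ± 0.56 in Atg7-KO;p62T352A against Atg7-KO and -1.33 ± 0.63 against cont. It rested on 25 counts over the cont. mice, 106 over Atg7-KO and 11 over Atg7-KO;p62T352A mice.

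**Figure D2:**
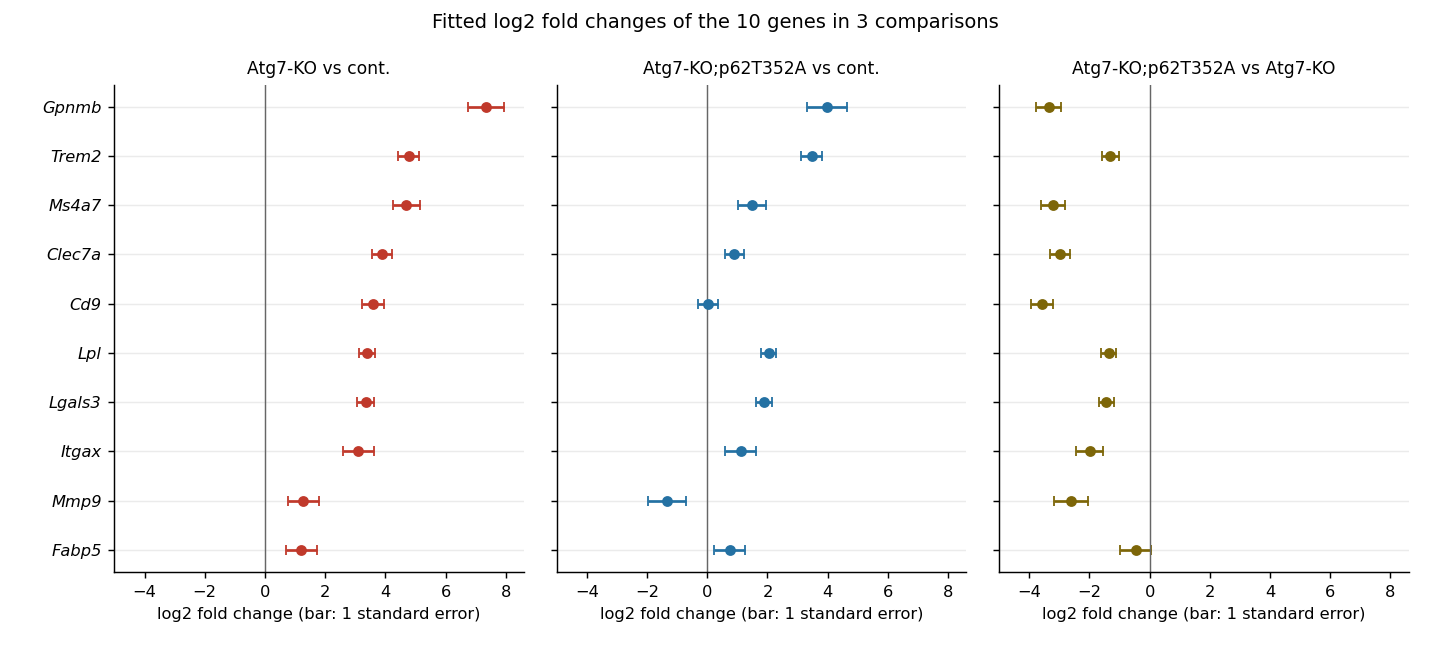
Fitted log2 fold changes (horizontal) of the 10 genes in 3 comparisons, with bars of 1 standard error, ordered by the change in Atg7-KO against cont. Values run from 1.20 for Fabp5 to 7.33 for Gpnmb in Atg7-KO against cont., and from -1.33 for Mmp9 to 3.98 for Gpnmb in Atg7-KO;p62T352A against cont.

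The log2 fold change in Atg7-KO;p62T352A against cont., as a percentage of that in Atg7-KO, differed among the genes. This percentage of log2 values is not a share of the rise in CPM. It was 72.6% for Trem2, 61.5% for Fabp5, 60.0% for Lpl, 56.8% for Lgals3 and 54.3% for Gpnmb. The value of Fabp5 rested on mouse 2 of Atg7-KO;p62T352A, without which its log2 fold change against cont. was below 0. It was 35.6% for Itgax, 31.6% for Ms4a7, 23.3% for Clec7a and 0.529% for Cd9, and the value of Mmp9 had the opposite sign. The standard errors of Fabp5 (0.51) and Mmp9 (0.63) in that comparison were large beside their log2 fold changes of 0.74 and -1.33. The standard error of Gpnmb (0.67) was the largest of the 10. Its 54.3% rested on 4 counts in cont., and its mean CPM was 1.80 in Atg7-KO;p62T352A, 18.5 in Atg7-KO and 0.111 in cont. The value of Trem2 rested on 20 counts in cont. The coefficient of variation between mice was smaller in Atg7-KO than in Atg7-KO;p62T352A for all 10 genes. Across all tested genes the Atg7-KO mice were also more alike, with Spearman correlations of 0.9905 to 0.994. Those among Atg7-KO;p62T352A mice were 0.973 to 0.982, so the smaller spread is not particular to the 10 genes. In Atg7-KO it was lowest for Cd9, at 4.53%, and highest for Mmp9, at 24.3%, while in Atg7-KO;p62T352A it ran from 26.4% for Lpl to 86.6% for Fabp5.

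Levels can be compared between genes only per length of transcript. In CPM per kilobase of the principal transcript, Cd9 led in Atg7-KO with 210, before Clec7a with 88.7, Lpl with 67.1, Fabp5 with 49.1 and Lgals3 with 39.7. Trem2 (13.8) and Ms4a7 (13.0) did not differ beyond the spread between mice, and Gpnmb (5.00), Itgax (3.60) and Mmp9 (0.493) followed. In cont. the order began with Fabp5 (21.2) and Cd9 (17.4) and ended with Mmp9 (0.193) and Gpnmb (0.0301). In Atg7-KO;p62T352A it began with Fabp5 (35.6) and Lpl (26.2), and Trem2 (5.56) stood above Ms4a7 (1.39), Itgax (0.900) and Gpnmb (0.487).

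Summed macrophage markers rose with these genes in Atg7-KO, and in Atg7-KO;p62T352A they overlapped cont. The sum of the 10 genes lay above cont. in Atg7-KO;p62T352A, but Lpl made up 108 of its mean of 207 CPM. Taken singly, 4 of the 10 genes were higher than cont. in Atg7-KO;p62T352A without overlap, beside 15.5% of all tested genes. The summed level of 10 pan-macrophage markers (Adgre1, Csf1r, Lyz2, Cd14, Fcgr1, Aif1, C1qa, C1qb, C1qc and Mrc1) was 233 to 403 CPM in cont., 1351 to 1456 in Atg7-KO mice and 175 to 390 in Atg7-KO;p62T352A mice. In edgeR's test, 9 of the 10 rose in Atg7-KO, all 10 fell in Atg7-KO;p62T352A against Atg7-KO, and against cont. 1 of them, the mannose receptor Mrc1, was called lower (log2 fold change -1.03 ± 0.20, adjusted p = 0.0129). Of all tested genes, 21.6% were called higher in Atg7-KO and 26.2% lower in Atg7-KO;p62T352A against Atg7-KO. In Atg7-KO;p62T352A against cont., 6.25% were called higher and 5.34% lower. The LPS co-receptor Cd14 changed most in Atg7-KO, by 4.09 ± 0.35 (adjusted p = 4.03e-05), and Mrc1 least, by 0.46 ± 0.19 (adjusted p = 0.076). Of 6 monocyte markers all rose in Atg7-KO and all fell in Atg7-KO;p62T352A against Atg7-KO. Against cont., Ccr2, the chemokine receptor of inflammatory monocytes, and the fractalkine receptor Cx3cr1 stayed higher, with log2 fold changes of 1.13 ± 0.29 (adjusted p = 0.0358) and 2.66 ± 0.63 (adjusted p = 0.0270).

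Resident Kupffer cell markers changed in both directions. Their summed level was 249 to 308 CPM in cont., 528 to 596 in Atg7-KO mice and 161 to 332 in Atg7-KO;p62T352A mice. Of 8 Kupffer markers, 4 rose in Atg7-KO (Vsig4, Cd5l, Folr2 and Clec1b), 2 fell, and Clec4f and Marco were not called. Of all tested genes, 21.6% were called higher and 22.1% lower, so the number of markers that fell is near the share of all genes. The scavenger receptor Cd163 fell by 2.71 in log2 terms (SE 0.34, adjusted p = 0.000260) and Timd4, the phosphatidylserine receptor of embryonically seeded Kupffer cells, fell by 1.31 (0.28, adjusted p = 0.00453). In Atg7-KO;p62T352A against cont. the lowest adjusted p-values of the 8 were 0.0775 (Marco) and 0.0849 (Cd163). Outside the macrophage lineage, summed cholangiocyte markers were 8.31 to 8.98 CPM in cont., 54.5 to 61.0 in Atg7-KO mice and 31.2 to 46.4 in Atg7-KO;p62T352A mice. Sox9 made up 30.8 of a mean of 38.9 CPM in Atg7-KO;p62T352A, and without it, a choice made after its values were seen, the sums were 2.84 to 5.61, 28.4 to 35.3 and 6.50 to 9.86 CPM. Summed hepatocyte markers were 78752 to 137420, 43676 to 46835 and 116930 to 138900 CPM. None of the markers in the table was at 0 in every mouse of a genotype. The part of these cell types in the levels of the 10 genes was not tested, beyond the ratios to macrophage markers that follow.

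**Figure D3:**
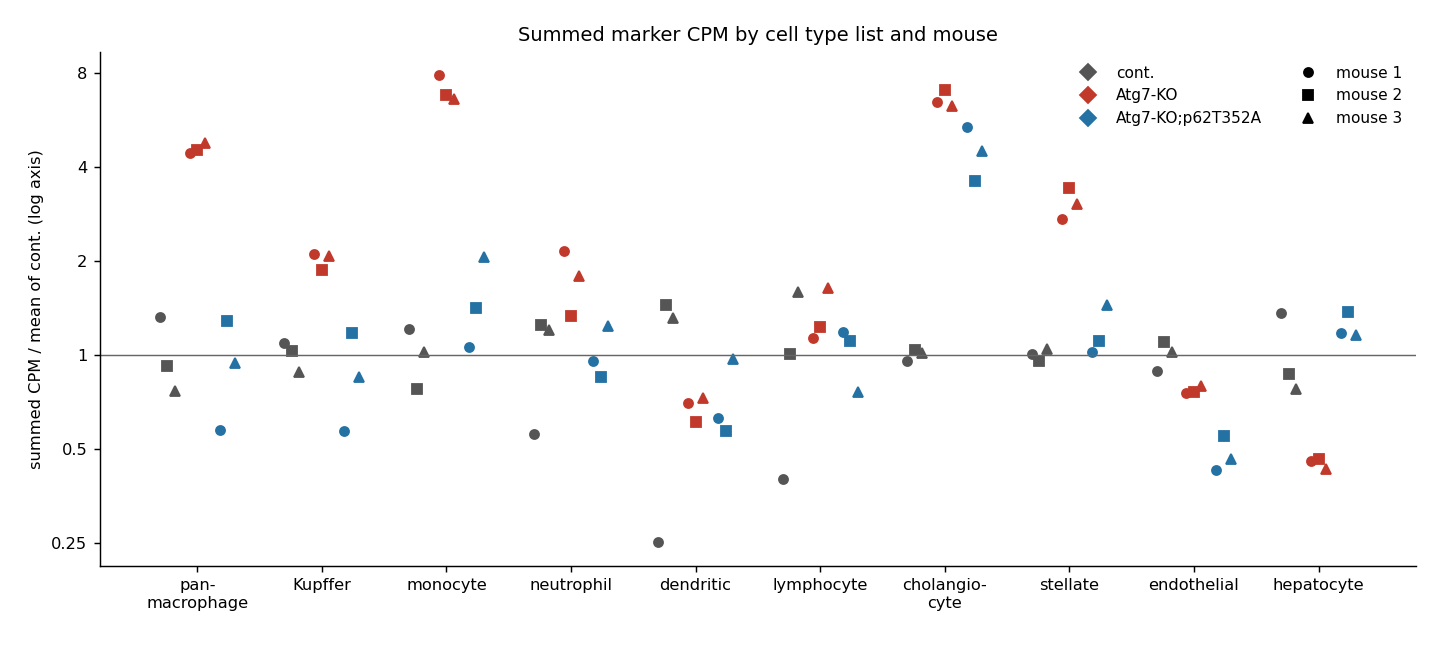
Summed CPM of 10 marker lists (horizontal) in each mouse, divided by the mean of the cont. mice (vertical, log axis), with colours for genotypes and symbols for mouse numbers. The sums of pan-macrophage and monocyte markers are higher in every Atg7-KO mouse than in all other mice, those of cholangiocyte markers are above cont. in both Alb-Cre genotypes, and those of hepatocyte markers are lowest in Atg7-KO. Cont. mouse 1 has the lowest dendritic and lymphocyte sums of all 9 mice.

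Taken relative to the summed pan-macrophage markers, the genes fell into different patterns. Trem2 amounted to 0.128%, 0.202% and 0.235% of that sum in cont., 1.23%, 1.06% and 0.934% in Atg7-KO and 1.96%, 1.79% and 2.69% in Atg7-KO;p62T352A mice. It was thus above cont. in both Alb-Cre genotypes, and higher in every Atg7-KO;p62T352A mouse than in every Atg7-KO mouse, the reverse of their order in CPM. The marker sum itself was far lower in Atg7-KO;p62T352A, and 85.6% of all tested genes were higher than in Atg7-KO without overlap in this ratio, so nothing particular to Trem2 is read from its order. With summed Kupffer markers as the denominator Trem2 was 2.79%, 2.78% and 2.32% in Atg7-KO and 2.13%, 2.11% and 3.21% in Atg7-KO;p62T352A mice, and the Alb-Cre genotypes overlapped. Relative to the pan-macrophage markers, Gpnmb was 0 to 0.0942% in cont., 1.26% to 1.36% in Atg7-KO mice and 0.377% to 1.05% in Atg7-KO;p62T352A mice, and Ms4a7 was 0.0942% to 0.256%, 1.19% to 1.29% and 0.530% to 0.866%. Both kept the order of their CPM, with no overlap between genotypes, and they and Cd9 were lower than in Atg7-KO in every Atg7-KO;p62T352A mouse, beside 2.88% of all tested genes. Cd9 was 18.2% to 18.6% in Atg7-KO and overlapped between cont. (6.28% to 7.86%) and Atg7-KO;p62T352A (5.33% to 8.92%).

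Lpl and Lgals3 were higher relative to the markers in both Alb-Cre genotypes than in cont., and those genotypes overlapped. Lpl was 8.05% to 9.72% in cont., 19.1% to 20.2% in Atg7-KO mice and 19.3% to 68.4% in Atg7-KO;p62T352A mice. Fabp5 was the exception, being lower in Atg7-KO (2.79% to 4.21%) than in cont. (6.21% to 7.32%) without overlap, as were 83% of all tested genes, and it overlapped cont. with Kupffer markers as the denominator. Clec7a was above cont. in both, while Itgax and Mmp9 overlapped in all comparisons with this denominator. Over Adgre1 and Csf1r alone or over Kupffer markers, Itgax was higher in every Atg7-KO mouse than in every cont. mouse. Over Adgre1 and Csf1r, Lpl and Lgals3 were higher in Atg7-KO;p62T352A than in Atg7-KO without overlap. Over Kupffer markers, Mmp9 was lower in Atg7-KO;p62T352A than in Atg7-KO. Shares of all tested genes were not taken for these denominators. Over the 10 pan-macrophage markers, 7 of the 10 genes were higher than cont. in Atg7-KO without overlap, beside 3.99% of all tested genes. In Atg7-KO;p62T352A 6 were, beside 8.69%. These shares are a description, since the levels of the same mice chose the genes. The median log2 ratio of the 10 genes within a mouse was -5.67 to -5.54 for Atg7-KO mice and overlapped that of Atg7-KO;p62T352A mice, -5.75 to -4.92. With Kupffer markers as the denominator it was -4.49 to -4.18 for Atg7-KO mice, above every Atg7-KO;p62T352A mouse, at -5.51 to -4.66.

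**Figure D4:**
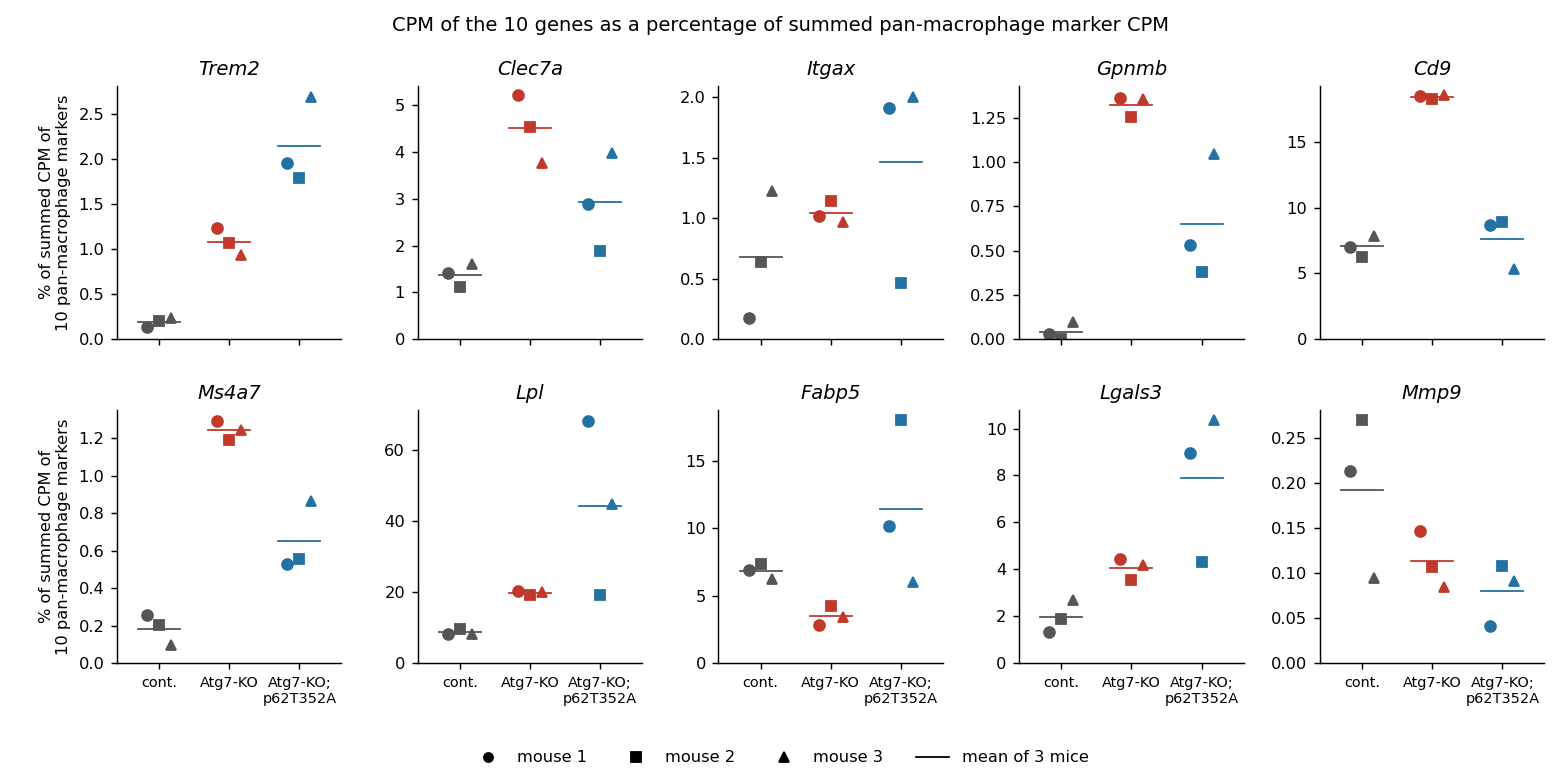
CPM of each gene as a percentage of the summed CPM of 10 pan-macrophage markers (vertical, from 0) in each mouse, with lines at the mean of 3 mice. Trem2 is highest in Atg7-KO;p62T352A (1.79% to 2.69%), Gpnmb, Cd9 and Ms4a7 are highest in Atg7-KO, and Fabp5 is lowest in Atg7-KO.

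The other genes of the TREM2 pathway and of lipid-associated macrophages formed a list of 45, of which 43 were in the table and all 43 passed the filter. In Atg7-KO, 33 of them rose and 3 fell in edgeR's test, beside 21.6% and 22.1% of all tested genes. In Atg7-KO;p62T352A against Atg7-KO, 31 fell and 2 rose, beside 26.2% and 24.7%. Against cont., 6 were called higher and 1 lower, beside 6.25% and 5.34%. The same shares stand beside the counts given below for the parts of this list. The median log2 fold changes of the list were 1.54, -1.51 and 0.15, against all-gene medians of -0.03, 0.00211 and 0.00444. The list was drawn up with earlier results of these mice known, so its counts are no independent evidence. Without cont. mouse 1 the calls were 37, 35 and 11 of 43, and with the mice numbered 2 and 3 alone 36, 33 and 14. With any 1 mouse left out, the last count ran from 3 to 11.

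Of 9 signalling genes, 6 rose in Atg7-KO and the same number fell in Atg7-KO;p62T352A against Atg7-KO. Between Atg7-KO;p62T352A and cont. the lowest adjusted p of these 9 was 0.108 (Malt1). Tyrobp, the adaptor without which TREM2 does not signal, was 17.5, 12.6 and 7.69 CPM in cont., 68.9, 55.1 and 62.5 in Atg7-KO and 11.4, 21.6 and 17.5 in Atg7-KO;p62T352A mice. It rose by 2.29 ± 0.32 on the log2 scale in Atg7-KO (adjusted p = 0.000497), and its levels in Atg7-KO;p62T352A overlapped cont. (0.41 ± 0.31, adjusted p = 0.425), whereas those of Trem2 did not. Plcg2, the phospholipase downstream of SYK, rose by 1.83 ± 0.23 (adjusted p = 0.000269). Card9 (0.49 ± 0.42, adjusted p = 0.363) was not called, and its partner Malt1 fell in Atg7-KO by 0.84 (standard error 0.31, adjusted p = 0.0487).

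Among ligands and sheddases, Clu (clusterin, a lipid-binding chaperone) rose by 1.61 ± 0.32 in Atg7-KO (adjusted p = 0.00308), as did Adam10, which sheds TREM2 from the cell surface (1.36 ± 0.24, adjusted p = 0.00158). Apoe, a ligand of TREM2 made mainly by hepatocytes in liver, fell by 1.08 (0.27, adjusted p = 0.00997), and in Atg7-KO;p62T352A it rose against Atg7-KO by 1.44 ± 0.28 (adjusted p = 0.00205). All 4 Ms4a genes in the table rose in Atg7-KO and fell in Atg7-KO;p62T352A against Atg7-KO. Ms4a4c, with 0.172 to 0.567 CPM in cont. and 7.35 to 9.98 in Atg7-KO, changed most. Ms4a6c also stayed above cont. in Atg7-KO;p62T352A (1.14 ± 0.32, adjusted p = 0.0473). The other 3 were not called in that comparison, at adjusted p-values of 0.192 or more.

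Of 10 lipid-handling genes, 7 rose and 1 fell in Atg7-KO. The fatty acid scavenger receptor Cd36 was 29.5 to 52.9 CPM in cont., 354 to 374 in Atg7-KO mice and 41.0 to 76.3 in Atg7-KO;p62T352A mice, a log2 fold change of 3.14 ± 0.29 in Atg7-KO (adjusted p = 5.91e-05). Soat1, which esterifies cholesterol for storage, rose by 2.58 ± 0.29 (adjusted p = 0.000172). The liver X receptor Nr1h3 fell by 0.64 (0.18, adjusted p = 0.0147), whereas its target Abcg1, a cholesterol exporter, rose by 2.09 ± 0.16 (adjusted p = 2.50e-05). Abca1, another target and cholesterol exporter, was not called in Atg7-KO (-0.34 ± 0.21, adjusted p = 0.221) but lower in Atg7-KO;p62T352A than in cont. (-0.91 ± 0.22, adjusted p = 0.0277).

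Of 16 further genes of lipid-associated macrophages, 14 rose in Atg7-KO and 12 fell in Atg7-KO;p62T352A against Atg7-KO. In Atg7-KO;p62T352A 5 stayed above cont.: Spp1, Cd63, Ctsz, Cd52 and Mmp12. Which cells of the liver held the transcripts of these 16 genes was not tested. Spp1, which encodes the secreted matrix protein osteopontin, was 43.0, 24.4 and 33.9 CPM in cont., 967, 874 and 771 in Atg7-KO and 135, 154 and 227 in Atg7-KO;p62T352A mice. Its log2 fold change was 4.69 ± 0.31 in Atg7-KO (adjusted p = 1.40e-05) and 2.35 ± 0.28 in Atg7-KO;p62T352A against cont. (adjusted p = 0.00400). The macrophage elastase Mmp12 was 0.287, 0.0946 and 0.220 CPM in cont., 59.1, 38.3 and 37.5 in Atg7-KO and 1.79, 3.36 and 4.24 in Atg7-KO;p62T352A mice. It had the largest log2 fold change of the list in Atg7-KO and was also called in Atg7-KO;p62T352A against cont. (adjusted p = 0.00494). Ctsl (0.36 ± 0.27, adjusted p = 0.296) and Atp6v0d2, which ranged from 1.95 to 49.6 CPM among cont. mice, were not called.

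**Figure D5:**
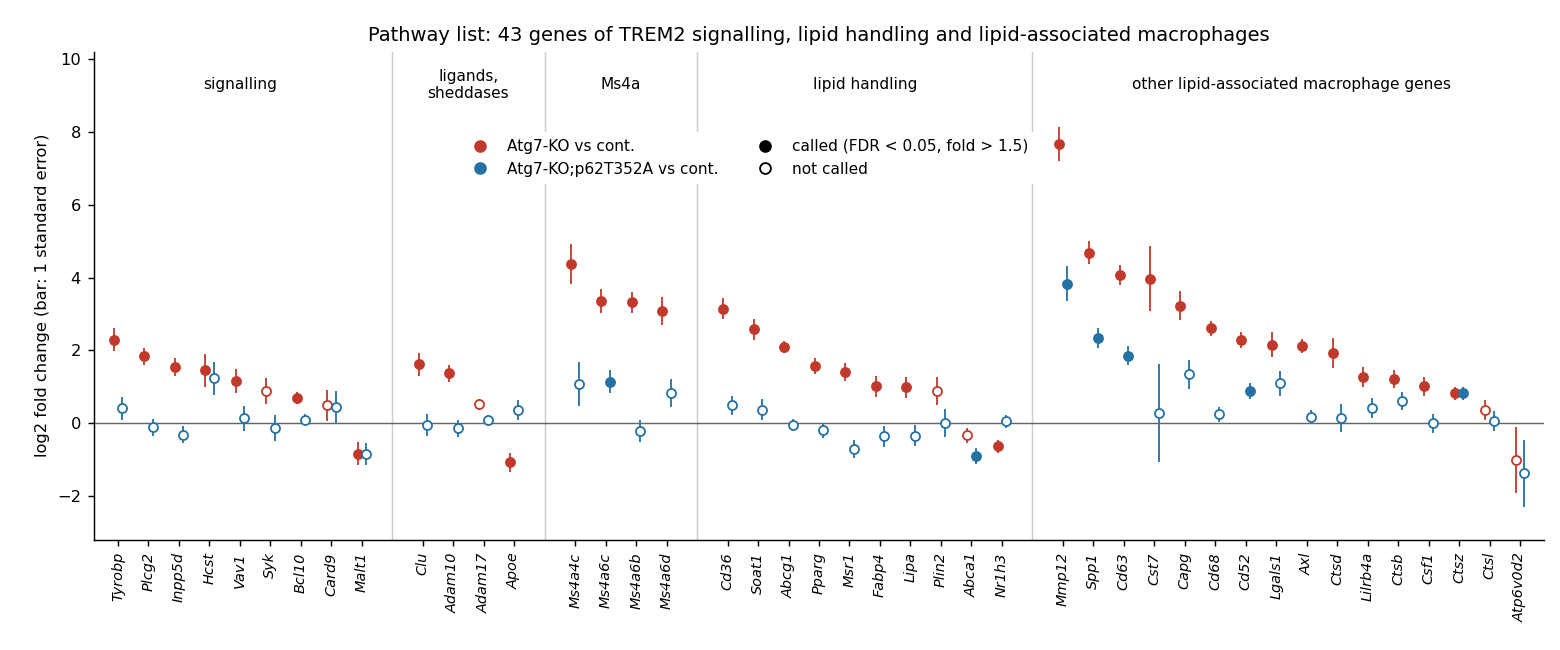
Log2 fold changes (vertical, bars of 1 standard error) of the 43 genes of the pathway list in Atg7-KO and in Atg7-KO;p62T352A, each against cont., grouped by role. Filled points are called. In Atg7-KO 36 are called, 33 of them higher, and in Atg7-KO;p62T352A 7 are called, 6 of them higher.

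Relatives of the 10 genes in the same families were compared as well. Of 22 relatives 20 were tested: 12 rose and 3 fell in Atg7-KO, beside 21.6% and 22.1% of all tested genes. In Atg7-KO;p62T352A against Atg7-KO 10 of them fell and 3 rose, beside 26.2% and 24.7%. Between Atg7-KO;p62T352A and cont. their lowest adjusted p was 0.0661 (Itgal). The lectin receptor Clec4d and the collagenase Mmp8 had the largest changes in Atg7-KO, with at most 0.0946 CPM in any cont. mouse and 0.469 to 0.967 CPM in Atg7-KO mice. Lipg, the endothelial lipase related to Lpl, fell by 2.70 (standard error 0.62, adjusted p = 0.00655), and was 3.44 CPM in cont. mouse 1 against 22.4 and 25.4 in cont. mice 2 and 3. Fabp1, the abundant fatty acid-binding protein of hepatocytes, fell by 1.82 (0.30, adjusted p = 0.00118) and was higher by 2.46 ± 0.31 in Atg7-KO;p62T352A than in Atg7-KO (adjusted p = 0.000241). Fabp5 and Fabp1 thus had log2 fold changes of opposite sign in Atg7-KO.

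The genes whose pattern over the 9 mice was most like that of Trem2 were ranked by the root mean square difference of log2 CPM centred on each gene's mean, over 12819 genes. The nearest were Bex1 (0.308), Timp1 (0.413), Tuba8 (0.453), Ube2c (0.475), Spp1 (0.520), Elf3 (0.541), Cdc20 (0.572) and Cd63 (0.577). In cont. mice 1, 2 and 3, Bex1 had 0, 1 and 0 counts and Timp1 1, 0 and 0. The prior count of 2 draws such low levels together. Fitted log2 fold changes in Atg7-KO against cont. were 6.27 for Bex1 and 7.02 for Timp1, above 4.77 for Trem2. Of the members, Lgals3 came at rank 16 (0.647) and Lpl at rank 23 (0.686), before Ms4a7 at 128, Clec7a at 173, Gpnmb at 212, Itgax at 262, Cd9 at 973 and Fabp5 at 1530. Mmp9, with a mean under 1 CPM, was not ranked. Timp1, an inhibitor of metalloproteinases, was at most 0.0573 CPM in cont., 3.78 to 4.95 in Atg7-KO mice and 0.643 to 1.70 in Atg7-KO;p62T352A mice. The mitotic genes Ube2c and Cdc20 were under 1 CPM in every cont. mouse, 10.8 to 24.0 and 11.1 to 19.8 CPM in Atg7-KO and 2.78 to 10.1 and 1.36 to 7.92 CPM in Atg7-KO;p62T352A mice. This likeness describes levels over 3 genotypes of 3 mice, which share libraries and depth.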

How the data were processed

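The authors mapped 75-bp single-end reads to mm10 with STAR and quantified genes with RSEM, and Trim Galore is also named in the submitters' processing notes. Versions, annotation and strand setting are not given in the sources used here. The deposited table holds expected counts per gene, made by the authors and not scaled to library size. It has 1 column for each of the 9 mice fitted, none for the p62T352A mice without Cre, and 0 columns were left unused. RNA was extracted with TRIzol by the paper's methods and with a column kit (RNeasy) by the labels. The expected counts were rounded to whole numbers. In R 4.3.3, genes were kept with filterByExpr by genotype, scaled by TMM and fitted for 9 mice in 1 quasi-likelihood model (edgeR 4.0.16, glmQLFit and glmQLFTest). Adjusted p-values are Benjamini-Hochberg values over all 13922 genes tested. Standard errors of fold changes follow from the F statistic of that model. DESeq2 1.42.0 was an alternative. Tables and figures were made with Python 3.11.15, pandas 2.3.3 and matplotlib 3.10.9.

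The members, the pathway list, the relatives, the marker lists and the rule for genes named were chosen with earlier results of these data known. Named are all members, the 2 largest and 2 smallest log2 fold changes of each list in Atg7-KO against cont., Atg7, Sqstm1 and Xist, and the 8 genes most like Trem2 (log2 CPM with a prior count of 2, mean of at least 1 CPM). Further genes are named where a count is small or a value singles them out, and these were chosen after their values were seen. Ratios to marker sums used a pseudocount of 0.1 CPM for their log2 values. Positions and lengths are from GENCODE vM21 (GRCm38) and principal transcripts. The 95% intervals of count ratios cover counting error only. Nothing in the labels states how mice were paired or whether replicates shared litters, and the main fit treats the mice as independent. Its p-values set each difference between genotypes against the spread between mice, as estimated over all 3 genotypes. The fit was tested on simulated data. Alternatives were other scalings and filters, a replicate block, the mice numbered 2 and 3 alone, the 20 most abundant genes left out, FDR alone, and each mouse left out in turn.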

Additional observations from a re-analysis of the deposited data

How the results depend on the processing

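For the medians of the 10 genes, 48 of 51 values under alternatives moved by less than the spread between mice and all kept their sign. In Atg7-KO against cont. the median of 3.49 became 3.72 with the mice numbered 2 and 3 only, and ran from 3.35 to 3.71 with 1 mouse left out. In Atg7-KO;p62T352A against Atg7-KO it became -1.79 with at least 10 counts in every mouse, which left 6 of the 10 genes. Single genes changed sign in Atg7-KO;p62T352A against cont. alone. Fabp5 was at 0.74 with all mice, -0.26 without mouse 2 of Atg7-KO;p62T352A and 1.07 without its mouse 3. Cd9, at 0.02 with all mice, was at -0.04 with DESeq2, with its size factors in edgeR and with the replicate block, at -0.01 with upper-quartile scaling, at -0.18 without cont. mouse 2, at -0.08 without cont. mouse 3 and at -0.50 without mouse 2 of Atg7-KO;p62T352A. Calls of the pathway list in Atg7-KO (36) and in Atg7-KO;p62T352A against Atg7-KO (33) stayed within 1.5 times under every alternative run. Those in Atg7-KO;p62T352A against cont. (7) became 11 with DESeq2 and 14 with the mice numbered 2 and 3 only, and ran from 3 to 11 with 1 mouse left out: 11 without cont. mouse 1, 4 without cont. mouse 2 or Atg7-KO mouse 1, and 3 without Atg7-KO mouse 2 or 3 or without mouse 2 or 3 of Atg7-KO;p62T352A. All-gene calls in that comparison, 1613, were 2975 with the mice numbered 2 and 3 only and 435 to 3245 with 1 mouse left out. Upper-quartile scaling moved the all-gene median log2 fold change from -0.03 to 0.08 in Atg7-KO against cont. and from 0.00211 to -0.14 in Atg7-KO;p62T352A against Atg7-KO, and changed no sign of a member other than Cd9.

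With a replicate block for mouse number, the pathway list had 35, 33 and 6 calls, in place of 36, 33 and 7, and all-gene calls in Atg7-KO;p62T352A against cont. fell from 1613 to 988. Deviations of same-numbered mice from their genotype mean correlated between -0.202 and 0.321 (mean 0.146, 9 pairs), beside a mean of -0.0706 for mice with different numbers (18 pairs). The 6 pairs numbered 1 or 3 lay between 0.137 and 0.321 and the 3 pairs numbered 2 between -0.202 and 0.0926. Not every pair was thus over 0.1, and the mice were not treated as paired, although those numbered 1 shared a low Xist level. Depth limits Gpnmb, Trem2 and Mmp9 in cont., which held 4, 20 and 25 counts over 3 mice.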

Other observations

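Markers of other liver cell types differed between genotypes as well, in edgeR's test over all genes. Of all tested genes, 21.6% were called higher in Atg7-KO, 26.2% lower in Atg7-KO;p62T352A against Atg7-KO and 6.25% higher in Atg7-KO;p62T352A against cont. Of 5 cholangiocyte markers tested 4 rose in Atg7-KO, 3 fell in Atg7-KO;p62T352A against Atg7-KO, and 2 were called above cont. in Atg7-KO;p62T352A. Epcam, an adhesion protein of bile duct cells, was higher by 4.04 ± 0.26 on the log2 scale in Atg7-KO (adjusted p = 1.37e-05) and by 1.72 ± 0.26 in Atg7-KO;p62T352A (adjusted p = 0.00725), each against cont. Sox9, a transcription factor of bile duct and progenitor cells, was higher by 2.39 ± 0.27 and by 2.65 ± 0.27 (adjusted p = 0.000170 and 0.00322), and between the Alb-Cre genotypes it was not called (0.26 ± 0.25, adjusted p = 0.406). Of 6 stellate cell markers 4 rose in Atg7-KO and the same number fell in Atg7-KO;p62T352A against Atg7-KO. Col1a1, the main chain of fibrillar collagen, rose by 4.20 ± 0.43 (adjusted p = 9.91e-05).

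Endothelial markers went a different way. Of 5, 1 rose (Pecam1) and 1 fell (Stab2) in Atg7-KO, near the shares of all tested genes called higher (21.6%) and lower (22.1%). In Atg7-KO;p62T352A 4 were called lower than in cont., beside 5.34% of all tested genes. Their summed level was 250 to 309 CPM in cont., 213 to 223 in Atg7-KO mice and 121 to 155 in Atg7-KO;p62T352A mice. Of 6 lymphocyte markers 3 rose in Atg7-KO, as did 3 of 5 neutrophil and 3 of 6 dendritic cell markers, while 5 of 6 hepatocyte markers fell. Sqstm1, which encodes p62, was 314 to 505 CPM in cont., 871 to 960 in Atg7-KO mice and 497 to 626 in Atg7-KO;p62T352A mice, with log2 fold changes of 1.24 ± 0.22 in Atg7-KO (adjusted p = 0.00189) and 0.49 ± 0.22 in Atg7-KO;p62T352A against cont. (adjusted p = 0.177). What part these cell types have in the levels of the 10 genes was not tested.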
